A study of Mus musculus with 7 samples.

Results

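The genes described here encode heterogeneous nuclear ribonucleoproteins (hnRNPs) and their close relatives, outside the H/F family to which Hnrnph2 belongs. They were chosen by symbol from a fixed list of hnRNP, poly(C)-binding, polypyrimidine tract-binding and FET family genes. All 31 were found, each on 1 row, among the 56941 rows of the deposited table. RNA sequencing was done on cerebral cortex of mice at postnatal day 7, with 4 wild-type (WT) samples and 3 samples of Hnrnph2 P213L mice. Both groups share tissue, age and library type, and the labels name no further allele, agent or treatment. Strain, sex, zygosity and whether each sample came from its own animal are not given in the labels, so p-values measure only the spread between these samples, which may be technical. The series asks, by its title, about the role of an Hnrnph2 variant in oligodendrocyte differentiation and myelination.

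hnRNPs bind newly made transcripts in the nucleus and act in splicing, 3′ end formation, export, stability and translation. Many of them repress or promote the same exons as other family members, and several control their own level through alternative exons that lead to decay of the transcript. In cortex a known example is the switch from Ptbp1, made in progenitors and glia, to its paralog Ptbp2 in neurons, which changes the splicing of many neuronal exons. Gene-level values as used here do not tell the isoforms of a gene apart.

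Expression was given as TPM, transcripts per 1000000, a value scaled to gene length and to the same total in each library. TPM keeps no read total, so the depth behind each value is not known. WT replicate 3 stood apart: its correlation with the other libraries over 17582 tested genes was 0.943 to 0.949, while each other library reached at least 0.990 with another. The labelled tissue held its defining markers, with Neurod2, Tbr1 and Emx1 of cortical excitatory neurons at 59.3 TPM or more in every library. Ttr, the choroid plexus carrier of thyroid hormone, reached 1216 TPM in WT replicate 2, against 1.36 TPM or less elsewhere. Of the marker lists, the summed level of the 5 oligodendrocyte markers did not overlap: the WT libraries held 187.1 to 233.8 TPM and the P213L libraries 130.3 to 144.7 TPM. The other 12 lists overlapped between the groups. Once WT replicate 3 was left out, the sums for microglia and oligodendrocyte precursors were each lower in all P213L libraries. For microglia the lowest WT sum was then 99.9 TPM and the highest P213L sum 96.2 TPM. For precursors these were 64.33 and 64.07 TPM. Singly, Pdgfra and Cspg4 of precursors and P2ry12 and Tmem119 of microglia still overlapped, while Cx3cr1 and Csf1r of microglia did not. The part of cell composition in the values below was not tested. In whole tissue, fewer cells of a type and less RNA per cell cannot be told apart.

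The 31 genes were all well expressed, and all passed the filter of a mean of at least 1 TPM. Means over the 7 libraries ran from 11.8 TPM for Ptbp3 to 644.1 TPM for Hnrnpa0. Their summed level was 4881 to 5067 TPM in the WT libraries and 4857 to 5169 TPM in the P213L libraries, which is 0.488 to 0.507% and 0.486 to 0.517% of each library. Apart from WT replicate 3, they varied little between libraries. The median SD of log2 values over the 6 libraries other than WT replicate 3 was 0.085 for these genes. It was 0.106 for the 9512 tested genes whose mean was at least that of the lowest member. That set was not matched to the members in level, so low variation is not shown to be particular to them.

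**Figure D1:**
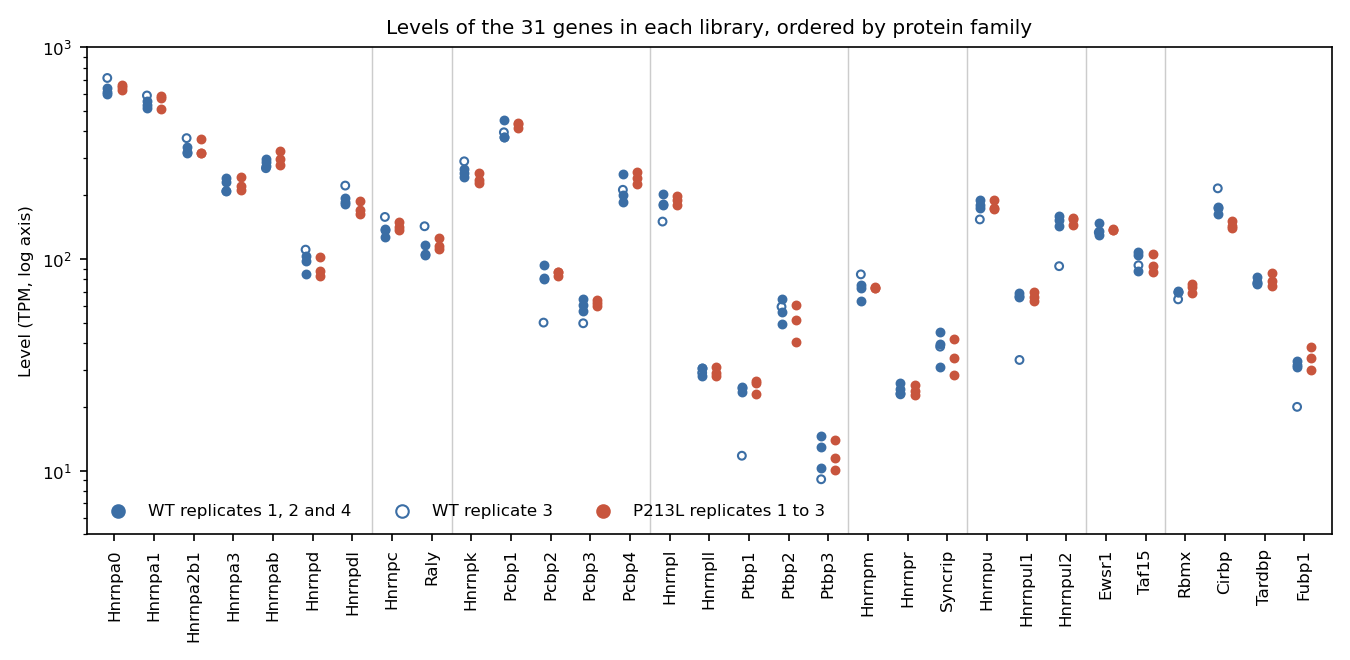
Level in TPM (log axis) of each of the 31 genes in each library, ordered by protein family, with blue circles for WT (open for replicate 3) and red circles for P213L. The groups lie on each other for most genes, Hnrnpa0 is highest at 644.1 TPM on average and Ptbp3 lowest at 11.8 TPM, and the open circle falls well below the rest for Ptbp1, Pcbp2, Hnrnpul1, Hnrnpul2 and Fubp1.

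No member differed past the threshold between P213L and WT. At an adjusted p under 0.05 (limma, Benjamini-Hochberg over all 17582 genes) 0 of 31 members were called, where 0.0% of all tested genes were called. At an unadjusted p under 0.05 in limma 1 member was called, Cirbp, or 3.23% of the 31, against 3.74% of all tested genes (1.38% lower in P213L and 2.36% higher). That share is near the background and is not a result about these genes as a set. The groups did not overlap for the same 1 member, where 8.69% of all tested genes did not overlap (2.75% lower in P213L and 5.94% higher). Without WT replicate 3 Cirbp was still the 1 member on both counts, against 8.65% of genes at an unadjusted p under 0.05 in limma and 14.2% without overlap. With sample weights in limma, which gave WT replicate 3 a weight of 0.0432 and P213L replicate 3 a weight of 6.90, 3 members passed adjustment, among 22.6% of all tested genes. They were Cirbp, lower in P213L, and Pcbp4 and Pcbp1, higher.

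Log2 fold changes of P213L over WT lay between -0.32 and 0.30, on the scale of log2(TPM + 0.5), with a median of 0.018 against 0.074 for all tested genes. Of the 31, 20 were above 0 and 11 below, or 64.5% above, against 63.4% of all tested genes. Median-of-ratios scaling, which sets libraries to the same typical gene, left 9 above and 22 below, or 29.0% above, against 48.5% of all tested genes. Quantile normalization left 17 above, or 54.8%, against 48.6% of all tested genes, and removal of the mitochondrial rows left 14, or 45.2%, against 59.2%. So with all libraries the split by direction depended on the scaling. Median-of-ratios scaling gave WT replicate 3 a factor of 0.819, against 1.036 to 1.058 for the others. With that scaling and no WT replicate 3, chosen after seeing the data, 17 were above and 14 below. The median was then 0.0061, and 49.5% of all tested genes were above 0. Without WT replicate 3 the split on TPM was 18 and 13, with a median of 0.0067 (49.7% above among all tested genes). Without P213L replicate 2 it was 14 and 17, with a median of -0.0082 (61.1% among all). Without P213L replicate 3 it was 23 and 8, with a median of 0.040 (63.4% among all). Sample weights gave 13 and 18, with a median of -0.013 (49.9% among all). The 95% interval of the fold change lay between -0.5 and 0.5 for 23 members and reached past those bounds for the other 8.

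**Figure D2:**
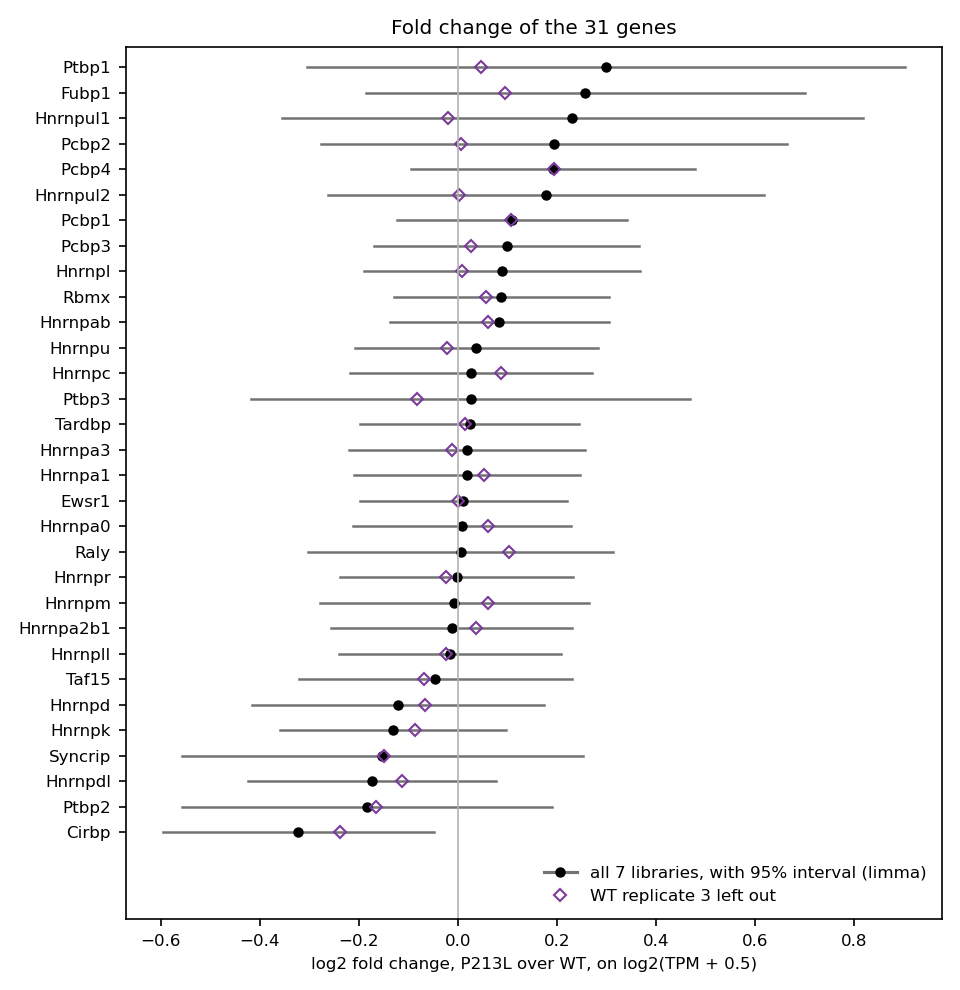
Log2 fold change of P213L over WT for each gene, on log2(TPM + 0.5), as black points with 95% intervals from limma over all 7 libraries and as open diamonds with WT replicate 3 left out. Cirbp, at -0.32, is the only gene whose interval does not include 0, and Ptbp1, Hnrnpul1 and Pcbp2 have wide intervals and diamonds near 0.

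Cirbp encodes a glycine-rich RNA-binding protein induced by mild cold, which also takes part in the daily rhythm of transcripts. The gene lies on chromosome 10, at 80165985 to 80172786 on the plus strand (mm10, GENCODE vM21). It stood at 162, 174, 215 and 176 TPM in WT replicates 1 to 4 and at 151, 139 and 143.5 TPM in P213L replicates 1 to 3. Each P213L library was under the lowest WT library, and WT replicate 3 was the highest. Means were 182 ± 23.2 TPM (SD, n = 4) and 144 ± 5.65 TPM (SD, n = 3). On the log2 scale the difference came to -0.32 ± 0.12 (SE; limma unadjusted p = 0.0266, adjusted p = 0.827), with a 95% interval from -0.60 to -0.048. By exact permutation over 35 splits, two-sided, p was 0.0571.

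Without WT replicate 3, Cirbp had a log2 fold change of -0.24 ± 0.059 (SE; limma unadjusted p = 0.00454, adjusted p = 0.499). The WT mean was then 170.5 ± 7.50 TPM (SD, n = 3). The sign was negative in each of the 18 alternatives run, from -0.41 to -0.24. Apart from a fit with the replicate block, the unadjusted p in limma was above 0.05 without P213L replicate 2 (0.0877), without P213L replicate 3 (0.0774) and with median-of-ratios scaling (0.060). The adjusted p was 0.499 or more in each alternative other than sample weights, where it was 0.00626. Beside it, the summed oligodendrocyte markers had the same order of groups, and their part in the difference was not tested.

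The promoter of Cirbp is shown because this was the only member whose groups did not overlap, and because its 5′ region holds a motif known from work on cold induction. That motif, TCCCCGCC, is known as the mild cold-responsive element. RefSeq has 2 start sites for Cirbp, and the 250 bases before the first (GRCm38.p6, the assembly of mm10, chr10:80167589-80167838, plus strand) are given with matches in capitals. Both starts lie inside the gene as GENCODE draws it. The window of the second start, chr10:80167921-80168170, holds neither motif and is not shown. The letters searched on both strands were TCCCCGCC and CCAAT, which do not overlap here.
Cirbp: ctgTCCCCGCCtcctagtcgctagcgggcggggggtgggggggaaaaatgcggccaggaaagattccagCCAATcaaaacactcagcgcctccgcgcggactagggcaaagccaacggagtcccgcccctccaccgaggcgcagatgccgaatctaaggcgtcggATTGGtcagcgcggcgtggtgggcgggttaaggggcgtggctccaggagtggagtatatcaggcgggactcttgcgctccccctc
The first match, TCCCCGCC, starts 247 bases before the start site, and CCAAT follows at 181 bases on the plus strand and at 85 bases on the minus strand (ATTGG). TCCCCGCC was found in 4.64% of 32851 RefSeq promoter windows of this length, in 8.01% of those of tested genes, and in 2 of the 30 windows of the members, those of Cirbp and Hnrnpa0. A match is a run of letters and says nothing of binding in these samples.

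**Figure D3:**
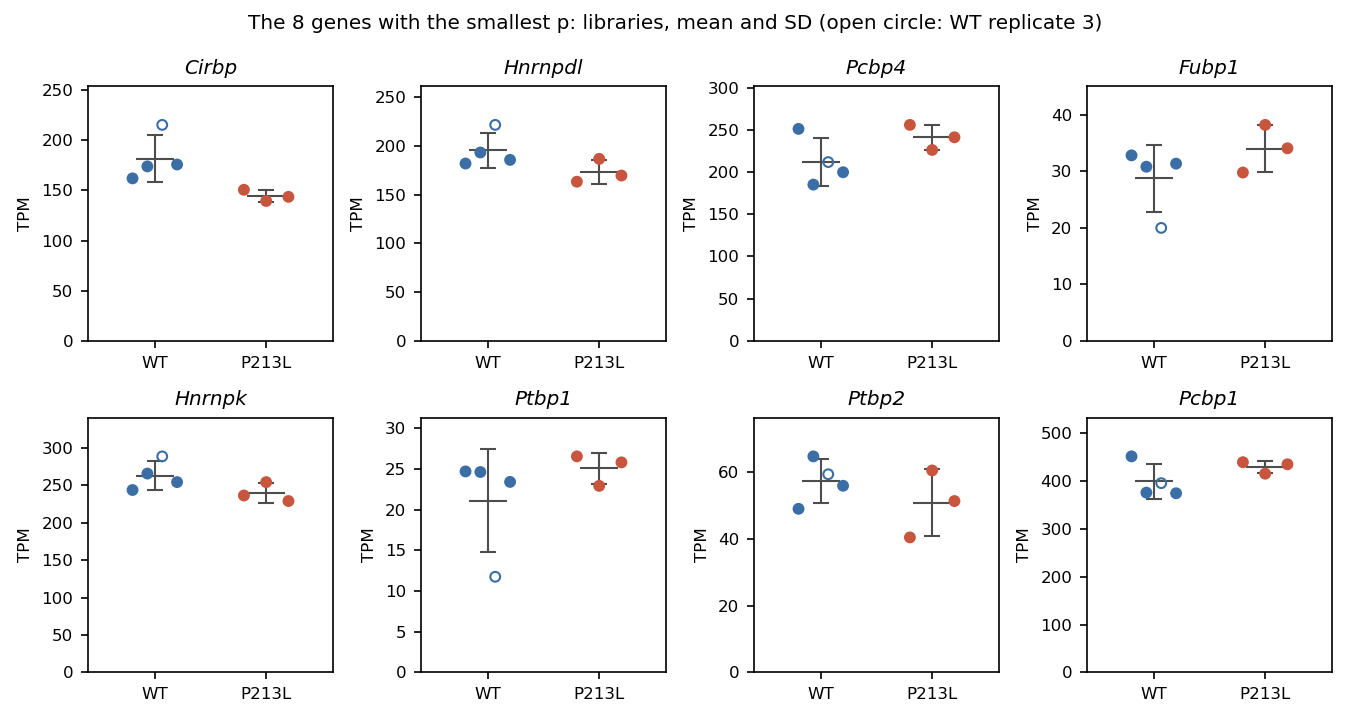
TPM in each library (circles, open for WT replicate 3) with mean and SD (bars) for the 8 members with the smallest limma p. Only for Cirbp do the 3 P213L libraries (139 to 151 TPM) all lie below the 4 WT libraries (162 to 215 TPM).

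Rbm3, the closest relative of Cirbp and also induced by cold, is not a member. It stood at 90.9, 96.9, 126.4 and 93.2 TPM in WT and at 86.4, 91.3 and 84.3 TPM in P213L. P213L replicate 2 lay above WT replicate 1, so the groups overlapped, and WT replicate 3 was again the highest. The log2 fold change of Rbm3 was -0.21 ± 0.13 (SE; limma adjusted p = 0.827), and -0.10 without WT replicate 3.

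Of the genes grouped with Cirbp here, Rbmx encodes the X-linked hnRNP G, Tardbp encodes TDP-43, a splicing repressor of cryptic exons, and Fubp1 encodes a KH-domain protein that binds single-stranded DNA upstream of Myc. Fubp1 stood at 32.8, 30.8, 20.01 and 31.4 TPM in WT and at 29.8, 38.2 and 34.1 TPM in P213L. WT replicate 3 was far below every other library, while the rest overlapped. Fubp1 had a log2 fold change of 0.26 ± 0.19 (SE; limma adjusted p = 0.827) with all libraries and 0.095 without WT replicate 3. Rbmx had means of 68.7 ± 2.90 TPM in the WT libraries and 73.0 ± 3.74 TPM in the P213L libraries, and Tardbp of 78.1 ± 2.89 and 79.5 ± 5.58 TPM (SD, n = 4 and 3). Their fold changes, 0.088 and 0.024 on the log2 scale, came to -0.0002 and -0.064 with median-of-ratios scaling.

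The A/B and D proteins carry a pair of RNA recognition motifs and a glycine-rich tail. Hnrnpd, also known as AUF1, binds AU-rich elements and promotes decay of the transcripts that carry them. None of the 7 passed at an unadjusted p under 0.05 in limma, and their log2 fold changes ran from -0.17 to 0.084. Hnrnpdl stood at 182, 193, 222 and 186 TPM in WT and at 163, 187 and 169.7 TPM in P213L. P213L replicate 2 lay within the WT range and the other P213L libraries below it. Hnrnpdl differed on the log2 scale by -0.17 ± 0.11 (SE; limma adjusted p = 0.827), and -0.11 without WT replicate 3.

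Hnrnpd, which lies 54638 bases from Hnrnpdl on the same strand of chromosome 5, had means of 99.0 ± 10.6 TPM in the WT libraries and 91.0 ± 10.3 TPM in the P213L libraries (SD, n = 4 and 3). Its log2 fold change was -0.12, and -0.066 without WT replicate 3, -0.053 without P213L replicate 1, and -0.21 without P213L replicate 2. Its values overlapped, at 85.1 to 110.5 and 82.6 to 102.6 TPM. Hnrnpa1 and Hnrnpa2b1, which bind similar sites and repress exons, differed by much less than the spread between libraries. Hnrnpa1 had means of 549 ± 32.6 TPM in the WT libraries and 556.0 ± 42.4 TPM in the P213L libraries, and Hnrnpa2b1 of 336 ± 25.2 and 333 ± 28.9 TPM (SD, n = 4 and 3). The 95% intervals of their log2 fold changes were -0.21 to 0.25 and -0.26 to 0.23. Hnrnpa0, which takes part in the stability of inflammatory transcripts, had means of 643 ± 50.01 and 646 ± 15.7 TPM. Hnrnpa3 had means of 222.5 ± 17.0 and 225 ± 15.6 TPM, and Hnrnpab, found in dendrites as well as nuclei, of 281 ± 12.8 and 299 ± 23.2 TPM (SD, n = 4 and 3). With median-of-ratios scaling Hnrnpa0, Hnrnpa1, Hnrnpa3 and Hnrnpab moved from just above 0 to just below it.

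Copies in the genome limit some of these values. A search of GENCODE vM21 pseudogene transcripts found 86 that match a member best at 90% identity or more over at least 200 bases, for 17 of the 31 members. Hnrnpa3 had 42 copies and Hnrnpa1 had 18, and the summed level of their copies was 4.43 and 2.53% of that of the gene. Hnrnpk had 3 copies, whose sum was 2.73% of its level, and the other members with copies stayed at 1.52% or less. How reads that fit both a gene and a copy were counted is not given in the sources used here, so the values of Hnrnpa3, Hnrnpa1 and Hnrnpk are less certain than those of genes with no copy, such as Cirbp.

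Hnrnpc and Raly form the C family. Hnrnpc binds runs of uridine and, in human cells, keeps Alu elements out of messages, and Raly shares its RNA-binding domain. Hnrnpc had means of 140 ± 12.9 TPM in the WT libraries and 142 ± 6.58 TPM in the P213L libraries, and Raly of 117 ± 17.8 and 116.8 ± 7.11 TPM (SD, n = 4 and 3). WT replicate 3 was the highest library for both, and the groups overlapped for both. The log2 fold changes of 0.027 and 0.0058 came to -0.061 and -0.083 with median-of-ratios scaling, and to 0.087 and 0.10 without WT replicate 3.

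Hnrnpk and the 4 Pcbp genes encode KH-domain proteins that bind cytosine-rich RNA. Hnrnpk acts in transcription, splicing and translation, Pcbp1 and Pcbp2 stabilise messages and carry iron, and Pcbp3 and Pcbp4 are less studied. None of the 5 passed at an unadjusted p under 0.05 in limma, and their log2 fold changes ran from -0.13 to 0.20. Hnrnpk stood at 244, 266, 289 and 254 TPM in WT and at 236, 254 and 229 TPM in P213L. P213L replicate 2 lay within the WT range and the other 2 P213L libraries below it. Hnrnpk had a log2 fold change of -0.13 ± 0.099 (SE; limma adjusted p = 0.827), and -0.086 without WT replicate 3.

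Pcbp4 stood at 251, 185, 212 and 199.7 TPM in WT and at 256, 226 and 241 TPM in P213L. WT replicate 1 lay among the P213L libraries and the other WT libraries below them. The log2 fold change of Pcbp4 was 0.19 ± 0.12 (SE; limma unadjusted p = 0.16, adjusted p = 0.827), and 0.20 without WT replicate 3. Without WT replicate 1 it was 0.28 (limma unadjusted p = 0.0330, adjusted p = 0.554).

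Pcbp1, an intronless gene, stood at 452, 376, 396 and 374 TPM in WT and at 439, 415 and 435 TPM in P213L. Again WT replicate 1 was high and the other WT libraries lay below P213L. Pcbp1 differed on the log2 scale by 0.11 ± 0.10 (SE; limma adjusted p = 0.827), by 0.17 without WT replicate 1 and by 0.021 with median-of-ratios scaling. Pcbp2 stood at 93.4, 80.3, 49.998 and 81.0 TPM in WT and at 86.3, 82.6 and 86.4 TPM in P213L. WT replicate 3 was far below, and the log2 fold change of Pcbp2 was 0.20 ± 0.20 with it and 0.0067 ± 0.072 without it (SE). Pcbp3 stood at 64.5, 60.7, 49.6 and 56.9 TPM in WT and at 64.1, 59.7 and 61.6 TPM in P213L, with overlapping groups and a log2 fold change of 0.099 ± 0.12 (SE). That of Pcbp3 was 0.027 without WT replicate 3 and 0.011 with median-of-ratios scaling.

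Hnrnpl, Hnrnpll and the 3 Ptbp genes encode splicing regulators. Hnrnpl binds CA-rich RNA, Hnrnpll is its paralog, and the Ptbp proteins bind pyrimidine-rich RNA next to exons. None of the 5 passed at an unadjusted p under 0.05 in limma. Ptbp1 stood at 24.7, 24.6, 11.8 and 23.4 TPM in WT and at 26.6, 22.9 and 25.8 TPM in P213L. WT replicate 3 held less than any other library, and the other 6 lay close together. The log2 fold change of Ptbp1, 0.30 ± 0.26 with all libraries, was 0.046 ± 0.074 without WT replicate 3 (SE). In WT replicate 3 the summed markers of dividing cells, astrocytes, excitatory and inhibitory neurons, oligodendrocyte precursors, microglia, meningeal fibroblasts and choroid plexus were also below the other 6 libraries. The sum of the 5 markers of radial glia and intermediate progenitors was not, at 126.9 TPM there against 94.4 to 130.9 TPM in the others. Of the 5, Pax6 and Nes were lowest in WT replicate 3, and Hes5 and Vim were highest there. Sums for erythroid cells (737.9 TPM), endothelium (350.4 TPM) and oligodendrocytes (233.8 TPM) were above the other 6 libraries. Within the last 2 of these lists Pecam1, Flt1 and Mog were lowest in WT replicate 3. In the erythroid list Alas2, at 4.505 TPM there, was below every P213L library (6.54 to 8.27 TPM). Among the lists with low sums, Gjb6 of astrocytes was highest in WT replicate 3. Neurod6, Emx1, Cdk1, Ccna2, Gad1, P2ry12, Tmem119, Dcn, Lum, Ttr and Folr1 were not lowest there. So not every marker went with its sum. The part of these in the level of Ptbp1 was not tested.

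Ptbp2, the neuronal paralog, stood at 49.0, 64.8, 59.4 and 56.0 TPM in WT and at 40.5, 60.5 and 51.4 TPM in P213L. P213L replicate 1 was the lowest library and the groups otherwise overlapped. Ptbp2 had a log2 fold change of -0.18 ± 0.16 (SE; limma adjusted p = 0.827), -0.031 without P213L replicate 1 and -0.32 without P213L replicate 2. Ptbp3 stood at 10.3, 14.5, 9.11 and 12.9 TPM in WT and at 10.03, 13.9 and 11.5 TPM in P213L, with a log2 fold change of 0.026 ± 0.19 (SE) that came to -0.058 with median-of-ratios scaling. Ptbp2 and Ptbp3 shared an order: among P213L libraries replicate 1 was lowest and replicate 2 highest, and WT replicate 2 was the highest of all for both. Hnrnpl had means of 179 ± 21.9 TPM in the WT libraries and 189 ± 8.80 TPM in the P213L libraries, and Hnrnpll of 29.5 ± 1.17 and 29.2 ± 1.52 TPM (SD, n = 4 and 3). Hnrnpll varied least between libraries of this family.

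A scaling factor common to a library drops out of the difference between paralogs within it, apart from the pseudocount, and TPM is per length, so levels of genes can be set side by side. As log2(TPM + 0.5), Ptbp2 less Ptbp1 was 0.97, 1.38, 2.29 and 1.24 in WT and 0.60, 1.38 and 0.98 in P213L, so Ptbp2 was the more abundant in every library. The groups differed by -0.48 (exact permutation p = 0.4, two-sided; 0.533 adjusted over the 4 pairs compared), by -0.21 without WT replicate 3 and by -0.29 without P213L replicate 1. Hnrnpll lay below Hnrnpl in every library, and the difference between the groups was -0.10 (exact permutation p = 0.343; adjusted 0.533). It was -0.032 without WT replicate 3, -0.041 without P213L replicate 1 and -0.19 without WT replicate 1.

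Pcbp2 less Pcbp1 was -2.27, -2.22, -2.97 and -2.20 in WT and -2.34, -2.32 and -2.33 in P213L. The P213L libraries lay close together (SD 0.0097), below 3 WT libraries and above WT replicate 3. The groups differed by 0.085 with all libraries (exact permutation p = 1.00; adjusted 1.00) and by -0.10 without WT replicate 3 (exact permutation p = 0.1, the smallest that 3 against 3 can give). Hnrnpr less Syncrip differed by 0.15 (exact permutation p = 0.371; adjusted 0.533). That difference was 0.017 without P213L replicate 1, 0.076 without WT replicate 2, 0.26 without P213L replicate 2 and 0.23 without WT replicate 1. None of the 4 pairs reached 0.0286, the smallest p that 4 against 3 can give.

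**Figure D4:**
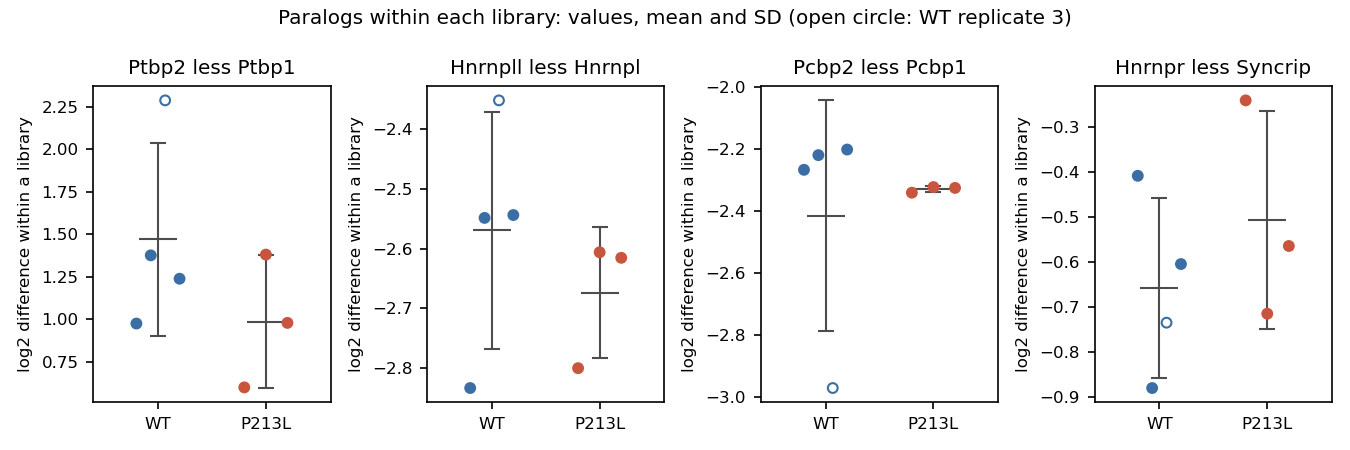
Difference of log2(TPM + 0.5) between paralogs within each library (circles, open for WT replicate 3), with mean and SD of each group; the vertical axes differ and do not start at 0. The groups overlap in all 4 panels, and WT replicate 3 lies apart at 2.29 for Ptbp2 less Ptbp1 and at -2.97 for Pcbp2 less Pcbp1.

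Hnrnpm binds GU-rich RNA, and Hnrnpr and Syncrip (hnRNP Q) are paralogs that travel with messages in dendrites and axons. Hnrnpm had means of 73.8 ± 8.85 TPM in the WT libraries and 73.1 ± 0.348 TPM in the P213L libraries, and Hnrnpr of 24.1 ± 1.30 and 24.0 ± 1.33 TPM (SD, n = 4 and 3). Both differences were far smaller than the spread between WT libraries. Syncrip stood at 30.98, 45.1, 38.5 and 39.5 TPM in WT and at 28.3, 42.0 and 33.9 TPM in P213L, with a log2 fold change of -0.15 ± 0.17 (SE; limma adjusted p = 0.827). Its libraries had the order seen for Ptbp2 at both ends, with P213L replicate 1 lowest and WT replicate 2 highest. Without P213L replicate 1 the log2 fold change of Syncrip was -0.016, and without WT replicate 2 it was -0.074. It was -0.30 without P213L replicate 2 and -0.25 without WT replicate 1.

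The U proteins are large nuclear proteins that bind RNA and chromatin, and Hnrnpu, also called scaffold attachment factor A, is needed for normal cortical development. Hnrnpu had means of 174 ± 15.5 TPM in the WT libraries and 178 ± 9.52 TPM in the P213L libraries, with a log2 fold change of 0.038 that came to -0.051 with median-of-ratios scaling. Hnrnpul1, which joins RNA processing to DNA repair, stood at 66.3, 68.7, 33.3 and 66.6 TPM in WT and at 69.4, 63.6 and 66.1 TPM in P213L. Its paralog Hnrnpul2 stood at 142, 152, 92.3 and 159 TPM in WT and at 156, 154 and 144 TPM in P213L. For both genes WT replicate 3 was alone at the low end and the other libraries overlapped. Log2 fold changes of 0.23 and 0.18 with all libraries came to -0.019 and 0.0023 without it.

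The FET proteins bind RNA and the transcription machinery through a low-complexity region. Ewsr1 stood at 148, 130.1, 133 and 135 TPM in WT and at 137, 138 and 137 TPM in P213L. The 3 P213L libraries lay inside the WT range, and the 95% interval of the log2 fold change, -0.20 to 0.22, was the narrowest of the 31. Taf15 stood at 107, 87.4, 93.2 and 104 TPM in WT and at 106, 92.3 and 86.8 TPM in P213L, with overlapping groups and a log2 fold change of -0.045 ± 0.12 (SE).

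How far WT replicate 3 lay from the other 6 libraries differed from gene to gene. It was below all of them for 11 members, above all of them for 10 and within their range for 10. Over all tested genes it was below the other 6 for 55.0% and above them for 21.6%. The median deviation from their mean was -0.056 on the log2 scale for the members and -0.30 for all tested genes. The lowest were Ptbp1 (-1.04), Hnrnpul1 (-0.99) and Pcbp2 (-0.76), and the highest were Cirbp (0.45), Raly (0.34) and Hnrnpdl (0.30). The 15 members with longer exons than the median member and the other 16 had median deviations of -0.047 and -0.061.

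**Figure D5:**
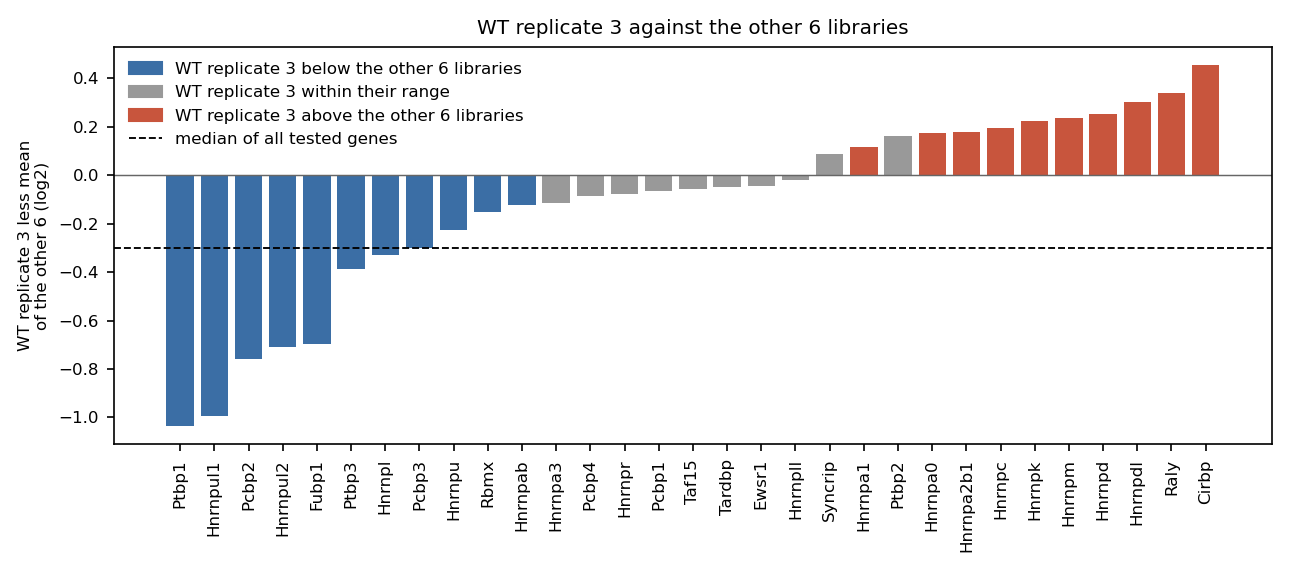
Bars give log2(TPM + 0.5) of WT replicate 3 less the mean of the other 6 libraries for each gene, coloured by whether it lies below (blue), within (grey) or above (red) their range; the dashed line is the median of all tested genes, -0.30. The bars run from -1.04 for Ptbp1 to 0.45 for Cirbp, with 11 blue, 10 grey and 10 red.

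The members lie on 16 chromosomes, with Rbmx on X. RefSeq promoter windows were found for 26 of the 31 symbols, 30 windows in all. The members' promoters were rich in CpG, with a median of 26 in 250 bases and a range of 9 to 46, against a median of 15 in the windows of tested genes and 6 in all windows. Their median GC content was 67.2%, against 59.6 and 52.4%. CCAAT was present in 16 of the 30 windows, or 53.3%, against 34.6% of the windows of tested genes. These are descriptions, with no test.

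In 3 other lists of RNA-binding genes 0 had an adjusted p under 0.05 in limma, where 0.0% of all tested genes did. At an unadjusted p under 0.05 in limma 1 passed, against 3.74% of all tested genes. With sample weights 3 SR and 2 other nuclear genes passed adjustment, against 22.6% of all tested genes. The groups did not overlap for 4 of these 33 genes (Tra2a, Srsf4, Sfpq and Nono), all higher in P213L, where 5.94% of all tested genes were higher without overlap. The 4 H/F genes had log2 fold changes from -0.084 for Hnrnph2 to 0.14 for Hnrnph3. Of 13 SR protein genes, which promote splicing at enhancers, 5 were above 0 and 8 below. That is 38.5% above, against 63.4% of all tested genes, and their median was -0.032, against 0.074. Tra2a, a splicing activator, was the 1 with an unadjusted p under 0.05 in limma (0.0194; adjusted p = 0.827). It stood at 44.8, 43.8, 42.8 and 45.2 TPM in WT and at 50.7, 60.5 and 52.5 TPM in P213L, with no overlap between the groups and a log2 fold change of 0.30 ± 0.10 (SE). With median-of-ratios scaling it was 0.21 (limma unadjusted p = 0.108). Without WT replicate 3 it was 0.28 on TPM (limma unadjusted p = 0.00695, adjusted p = 0.499). It was also 0.28 with median-of-ratios scaling and no WT replicate 3 (limma unadjusted p = 0.0056). Of 16 other nuclear RNA-binding genes, 11 were above 0 and 5 below, or 68.75% above, against 63.4% of all tested genes. Their median was 0.064, against 0.074. The paraspeckle gene Sfpq had means of 229 ± 19.5 TPM in the WT libraries and 268 ± 11.4 TPM in the P213L libraries (SD, n = 4 and 3), without overlap between the groups. Its log2 fold change was 0.24 ± 0.10 (SE; limma unadjusted p = 0.0527, adjusted p = 0.827), and 0.15 with median-of-ratios scaling (limma unadjusted p = 0.16). Without WT replicate 3 that of Sfpq was 0.17 on TPM (limma unadjusted p = 0.0159, adjusted p = 0.518). It was also 0.17 with median-of-ratios scaling (limma unadjusted p = 0.0154). On TPM without WT replicate 3, 8.65% of all tested genes had an unadjusted p under 0.05 in limma. With median-of-ratios scaling the medians of the SR and other nuclear lists were -0.12 and -0.024, against -0.0083 for all tested genes. On TPM without WT replicate 3 they were 0.011 and -0.0046, against -0.001.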

How the data were processed

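RNA was extracted with TRIzol and sequenced as stranded mRNA libraries, according to the labels' protocols. The submitters' processing notes name HISAT2, HTSeq and mm10. The sources used here do not give versions, the annotation or the handling of multiply mapped reads. The deposited table holds TPM per gene and sample, made by the authors and labelled so per the file headers, and each column sums to 1000000. TPM fixes the library total, so a change in abundant transcripts shifts all other values.

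Samples were grouped by title. Genes averaging 1 TPM or more were compared on the scale of log2(TPM + 0.5) with limma 3.58.1 in R 4.3.3 (mean-variance trend, two-sided, Benjamini-Hochberg over 17582 genes, threshold 0.05). Paralog differences were tested by exact permutation over 35 splits. The fit was tested on simulated data over 10 sets of the 17582 genes and recovered 13.6% of the changes of size 0.58 (log2), 46.2% of size 1, 84.4% of size 2 and 91.2% of size 3. Changed genes were drawn from all tested genes, with independent noise and no library set apart. These shares therefore need not hold for the members. Positions and pseudogenes came from GENCODE vM21 (blastn 2.17.0) and promoters from RefSeq. Figures used matplotlib 3.10.9.

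Values in every library are given for the 8 members with the smallest p, for members whose groups do not overlap, and for the Ptbp, Pcbp and FET genes. Syncrip, Hnrnpul1 and Hnrnpul2 were added after their values were seen, as were the protein families that order the text, the promoter motifs and the pseudogene search. The members and lists were chosen with earlier results of these data known. Alternatives were other pseudocounts, filters and scalings, no trend, a block for the replicate number, sample weights and each library left out.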

Additional observations from a re-analysis of the deposited data

Results flagged for a closer look

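A WT library at a distance from the rest was sought in 36 measures: 31 genes, 4 paralog differences and the summed level. By chance about 1 in 20 would give such a library if the measures were independent. They are not, since all rest on the same 4 WT libraries. It was found in 4 measures, each time as WT replicate 3. Hnrnpul1 stood at 33.3 TPM there, against 66.3 to 68.7 TPM in the other WT libraries. Ptbp1 stood at 11.8 TPM, against 23.4 to 24.7 TPM. Fubp1 stood at 20.01 TPM, against 30.8 to 32.8 TPM. Pcbp2 less Pcbp1 was -2.97 on the log2 scale, against -2.27 to -2.20.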

How the results depend on the processing

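Every member kept its sign and stayed short of an adjusted p of 0.05 in limma with other pseudocounts, no filter, a filter of 5 TPM and no trend. The values that follow are log2 fold changes of members whose sign turned. With median-of-ratios scaling Rbmx came to -0.0002, Hnrnpab to -0.0042, Hnrnpu to -0.051, Hnrnpc to -0.061, Tardbp to -0.064, Hnrnpa1 to -0.071, Hnrnpa3 to -0.07, Ptbp3 to -0.058, Ewsr1 to -0.077, Hnrnpa0 to -0.079 and Raly to -0.083. With mitochondrial rows removed Tardbp came to -0.0017, Hnrnpa1 to -0.0083, Hnrnpa3 to -0.008, Ewsr1 to -0.015, Hnrnpa0 to -0.017 and Raly to -0.0204. With quantile normalization Tardbp came to -0.012, Ptbp3 to -0.073, Ewsr1 to -0.011, Hnrnpa2b1 to 0.046 and Raly to -0.013. With sample weights Hnrnpul2 came to -0.092, Hnrnpul1 to -0.013, Hnrnpab to -0.0098, Hnrnpu to -0.088, Tardbp to -0.037, Hnrnpa1 to -0.063, Hnrnpa3 to -0.13, Ptbp3 to -0.15 and Hnrnpm to 0.039. With the replicate block Hnrnpc came to -0.017, Hnrnpll to 0.0005, Hnrnpa0 to -0.011, Raly to -0.042 and Hnrnpr to 0.032. With median-of-ratios scaling and no WT replicate 3, chosen after seeing the data, Hnrnpul1 came to -0.0196, Hnrnpu to -0.022, Hnrnpa3 to -0.012, Ptbp3 to -0.082, Ewsr1 to -0.0002, Hnrnpa2b1 to 0.036 and Hnrnpm to 0.0597. With each library left out in turn, the members that changed sign ranged over Ewsr1 -0.011 to 0.0502, Hnrnpa0 -0.021 to 0.061, Hnrnpa1 -0.0201 to 0.083, Hnrnpa2b1 -0.083 to 0.036, Hnrnpa3 -0.035 to 0.061, Hnrnpc -0.017 to 0.087, Hnrnpll -0.055 to 0.018, Hnrnpm -0.0797 to 0.0604, Hnrnpr -0.042 to 0.035, Hnrnpu -0.022 to 0.081, Hnrnpul1 -0.019 to 0.33, Ptbp3 -0.094 to 0.13, Raly -0.046 to 0.10, Taf15 -0.13 to 0.017 and Tardbp -0.03 to 0.068. Median-of-ratios scaling also took Hnrnpdl from -0.17 to -0.26, Hnrnpk from -0.13 to -0.22, Hnrnpd from -0.12 to -0.21, Taf15 from -0.045 to -0.13, Pcbp4 from 0.19 to 0.10 and Fubp1 from 0.26 to 0.17. The causes were not tested.

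The count of genes past adjustment was 0 except with sample weights (3981, of which 3 were members). Genes at an unadjusted p under 0.05 numbered 657, and 1836 with no filter, 361 with a filter of 5 TPM, 6969 with sample weights, 1533 with median-of-ratios scaling and no WT replicate 3, and 269 to 1571 with a library left out (lowest without P213L replicate 1, highest without WT replicate 1, 1532 without WT replicate 3, 391 and 315 without P213L replicates 2 and 3). Members at an unadjusted p under 0.05 numbered 1, and 10 with sample weights, 0 with median-of-ratios scaling, 0 with the replicate block, and 0 to 2 with a library left out (0 without P213L replicate 2 or 3, 2 without WT replicate 1). The members' median log2 fold change, 0.018, was -0.070 with median-of-ratios scaling, -0.0080 with mitochondrial rows removed, -0.013 with sample weights, and -0.0082 to 0.040 with a library left out (without P213L replicates 2 and 3). Pcbp2 less Pcbp1 ranged from -0.10 to 0.16 with a library left out. Same-numbered libraries had correlations of 0.13, 0.17 and -0.10 between their deviations. P213L replicates 1 and 2 correlated best with the WT library of their own number. P213L replicate 3 did so with WT replicate 1 (0.12). Whether the numbers pair the samples cannot be told from these values. The block, in which WT replicate 4 has no partner, changed no call past adjustment. Cirbp had an unadjusted p of 0.0761 in limma with the block. TPM keeps no depth, so which values rest on few reads cannot be told.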

Other observations

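Among the 3 P213L libraries, replicate 2 had the highest value for 18 of the 31 members, replicate 1 for 12 and replicate 3 for 1. Over all tested genes the shares were 38.8, 35.1 and 26.0%. The lowest P213L value was in replicate 3 for 14 members, in replicate 1 for 10 and in replicate 2 for 7, where the shares over all tested genes were 26.9, 38.3 and 34.9%.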
